A study of Mus musculus with 6 samples.

Results

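Ferritin and iron handling genes were examined in muscle satellite cells (MuSCs), the stem cells of skeletal muscle, after 3 d in culture. The genes were chosen by symbol for their roles in iron storage, uptake, export, heme breakdown and iron sensing. No measured value entered the rule, but earlier results of these data were known when it was made. All 10 (*Fth1*, *Ftl1*, *Ncoa4*, *Tfrc*, *Slc11a2*, *Steap3*, *Slc40a1*, *Hmox1*, *Aco1* and *Ireb2*) were among the 20654 genes of the count table. The cells were sorted from C57BL/6 mice by surface markers (VCAM1 present, and CD31, CD45 and Sca1 absent). There were 3 libraries labelled wild type, whose genotype is given in the study as *Piezo1*+/+; *Pax7*CreERT2/+, and 3 libraries labelled *Piezo1* cKO, from *Piezo1*flox/flox; *Pax7*CreERT2/+ mice. In both groups Cre was driven by *Pax7*, so that recombination was limited to cells that express it, and 1 μM 4-OH TMX, the active form of tamoxifen, was added to the medium of both. The study induced *Piezo1* deletion by tamoxifen injection of the mice, and whether wild type mice of these libraries were injected is not stated in the labels. The age of the mice is not given in the sources used here. Whether libraries of a group came from separate cultures is not stated in the labels, so p-values measure the spread between these libraries.

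Cells take up iron bound to transferrin through the transferrin receptor, reduce it in endosomes, move it to the cytosol and store the surplus inside ferritin, a hollow shell of heavy and light chains. Ferroportin is the exporter through which iron leaves the cell. The iron regulatory proteins bind a hairpin in the messenger RNAs of these genes, the iron-responsive element (IRE), when iron is scarce. Binding near the start of the message blocks translation, and binding near its end protects the message from decay.

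The IRE is shown first because it links the ferritin, receptor and exporter genes. The search used the known form of the element and was checked on the *Slc40a1* sequence. Matches in these genes are therefore a description and no independent result. Annotated UTRs of coding transcripts (GENCODE M21, GRCm38) were searched on the transcript strand for the loop CAGTGN, enclosed by 5 base pairs (G-T pairs allowed) and preceded by an unpaired C. Such a core was found in 31 of 21901 coding genes in the 5′ UTR (0.142%) and in 129 in the 3′ UTR (0.589%). Among the 10 iron handling genes, *Fth1*, *Ftl1* and *Slc40a1* each held 1 core in the 5′ UTR and *Tfrc* held 4 in the 3′ UTR. The other 6 genes had no match to these letters, which says nothing of other forms of the element. The 30 bases around each core follow as DNA, 5′ to 3′, with the loop in capitals.
*Fth1*, 5′ UTR, chr19:9982732-9982761, plus strand: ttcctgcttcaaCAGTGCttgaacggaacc
*Ftl1*, 5′ UTR, chr7:45459778-45459807, minus strand: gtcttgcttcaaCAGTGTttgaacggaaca
*Slc40a1*, 5′ UTR, chr1:45925464-45925493, minus strand: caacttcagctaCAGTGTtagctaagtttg
*Tfrc*, 3′ UTR, chr16:32631219-32631248, plus strand: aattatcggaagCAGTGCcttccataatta
*Tfrc*, 3′ UTR, chr16:32631598-32631627, plus strand: cattatcgggagCAGTGTcttccataatgc
*Tfrc*, 3′ UTR, chr16:32631663-32631692, plus strand: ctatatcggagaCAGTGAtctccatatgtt
*Tfrc*, 3′ UTR, chr16:32631710-32631739, plus strand: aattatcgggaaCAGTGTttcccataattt
The loop CAGTGT was shared by *Ftl1*, *Slc40a1* and 2 of the 4 *Tfrc* elements. The 5 paired bases on either side of the loop were the same in *Fth1* and *Ftl1*.

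RNA-seq libraries were made from 500 pg of total RNA with oligo-dT primers that carry a unique molecular identifier (UMI), so PCR copies of 1 molecule are counted once. Total counts were 740936, 931168 and 891531 in wild type 1 to 3 and 810096, 726378 and 769295 in the libraries labelled cKO 1 to 3. Levels are given as CPM after TMM normalisation and were not divided by transcript length. CPM are counts per 1e6 counts of the library in genes that passed a filter on low counts. A count of 3 corresponded to between 3.35 and 4.31 CPM, and intervals and floors given here cover counting error only. *Piezo1*, the targeted gene, had 11, 5 and 6 counts in wild type and 7, 12 and 9 counts in the libraries labelled cKO. The targeted gene thus gave no check of the labels, on which each direction below depends. A count for the whole gene includes transcripts without the floxed exons.

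MuSC identity was examined through 10 myogenic markers. *Myod1*, the myogenic factor that is most abundant among them, was at 1366 to 1569 CPM in wild type and at 1087 to 1489 CPM in the libraries labelled cKO, and *Pax7* was at 6.60 to 29.0 CPM. Of the 10, 9 had counts in all 6 libraries, and *Chodl* had 2 and 1 counts in cKO 1 and 2 and 0 elsewhere. *Vcam1*, the marker used for sorting, was at 124, 143 and 152 CPM in wild type and at 117, 85.8 and 105 CPM in the libraries labelled cKO (-0.45, adjusted p = 0.185, edgeR). *Sdc4* had a log2 fold change of -0.53 (adjusted p = 0.0609, edgeR), also lower without overlap, and *Cdh15* one of 0.53 (adjusted p = 0.118, edgeR), higher without overlap. Summed levels of muscle differentiation genes did not overlap between the groups. The sum over 13 of them was 367, 164 and 362 CPM in wild type 1 to 3 and 673, 1694 and 857 CPM in the libraries labelled cKO 1 to 3, with *Acta1* the most abundant and 2 of 7 tested genes called higher, against 0.468% of all genes tested. The 12 cell cycle genes summed to 2314 to 2757 CPM in wild type and 1858 to 2390 CPM in the libraries labelled cKO, and all 12 had log2 fold changes below 0 (median -0.30), none of them called. The part of these shifts in the iron results was not tested, and fewer cells of a type and less RNA per cell cannot be told apart in bulk RNA.

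Of the 10 genes, the exporter had the largest ratio between the groups. *Slc40a1* encodes ferroportin, the only known cellular exporter of iron, and lies on the minus strand of chromosome 1 of GRCm38 from 45908068 to 45926523. It had 1, 4 and 7 counts in wild type and 8, 28 and 32 counts in the libraries labelled cKO. These counts correspond to 1.44, 4.46 and 8.27 CPM in wild type and to 10.1, 37.0 and 42.4 CPM in the libraries labelled cKO. cKO 2 and 3 lay well above all others, while cKO 1 was close to wild type 3, and the groups did not overlap. Mean levels were 4.72 ± 3.42 CPM (SD, n = 3) and 29.8 ± 17.3 CPM (SD, n = 3), a ratio of 6.32. Pooled over libraries, the 12 counts of wild type and 68 of cKO were in a ratio of 6.01 after correction for depth (95% confidence interval 3.23 to 12.2, exact Poisson, counting error of these libraries only).

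*Slc40a1* did not pass the filter on low counts, so it was not among the 8551 genes of the main test. Without the filter, edgeR's quasi-likelihood test over 19247 genes placed *Slc40a1* at a log2 fold change of 2.55 (standard error, SE, of 0.42, adjusted p = 2.0e-06), and 129 of these genes (0.67%) were called at an adjusted p under 0.05. It was the only one of the 10 iron handling genes called there. In 6 unfiltered edgeR fits with 1 library left out, chosen after the table was seen, adjusted p lay between 7.9e-09 and 0.00594, with log2 fold changes from 2.20 to 3.17. Those fits called 0.803%, 0.326% and 0.807% of genes without wild type 1, 2 and 3, and 0.954%, 0.385% and 0.405% without cKO 1, 2 and 3. Filtered fits are not used for *Slc40a1*, since no wild type library reached 10 counts and cKO 2 and 3 alone could carry it past the filter. limma-voom without the filter, which called 1.11% of genes, gave 2.42 (adjusted p = 5.5e-04), and unfiltered edgeR with the replicate block, which called 0.623%, gave 2.63 (adjusted p = 3.3e-06). DESeq2 gave 2.61 with an unadjusted p of 1.3e-04, but no adjusted p, because its own filter left the gene out. The exact permutation test on the 6 libraries gave a two-sided p of 0.1, the smallest that 3 against 3 allows.

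*Slc40a1* is also known for its high expression in macrophages. Of 15 macrophage markers, 7 were analysed, and their summed level was 37.4, 50.2 and 33.1 CPM in wild type and 29.2, 31.7 and 30.5 CPM in the libraries labelled cKO. These sums were mostly *Cd14*, with 12 to 17 counts per library, and *Cd68*, with 5 to 13 counts, and their part in the *Slc40a1* result was not tested. *Csf1r*, the receptor that defines the lineage, had 2, 1 and 1 counts in wild type and 0 in each library labelled cKO. The 2 globin genes analysed, markers of red blood cells, summed to at most 1.33 CPM, and 7 endothelial markers to at most 19.9 CPM, with *Tie1* at 0 in every library and *Tek* the most abundant. The 9 genes of fibro-adipogenic cells summed to 328 to 502 CPM in wild type and 294 to 350 CPM in the libraries labelled cKO, and 3 of them were tested. *Gsn*, the most abundant, had a log2 fold change of 0.17 (adjusted p = 0.713, edgeR). *Dcn* was called lower (-2.17, adjusted p = 3.9e-04, edgeR). *Cd34*, which MuSCs also express, was at 76.2 to 192 CPM in wild type and 30.4 to 49.4 CPM in the libraries labelled cKO (-1.59, adjusted p = 0.181, edgeR). *Ly6a*, which encodes the Sca1 antigen that the sort excluded, had 2, 2 and 3 counts in wild type and 5, 8 and 9 counts in the libraries labelled cKO, higher without overlap. The part of these markers, and of the muscle differentiation genes described above, in the *Slc40a1* result was not tested.

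**Figure D1:**
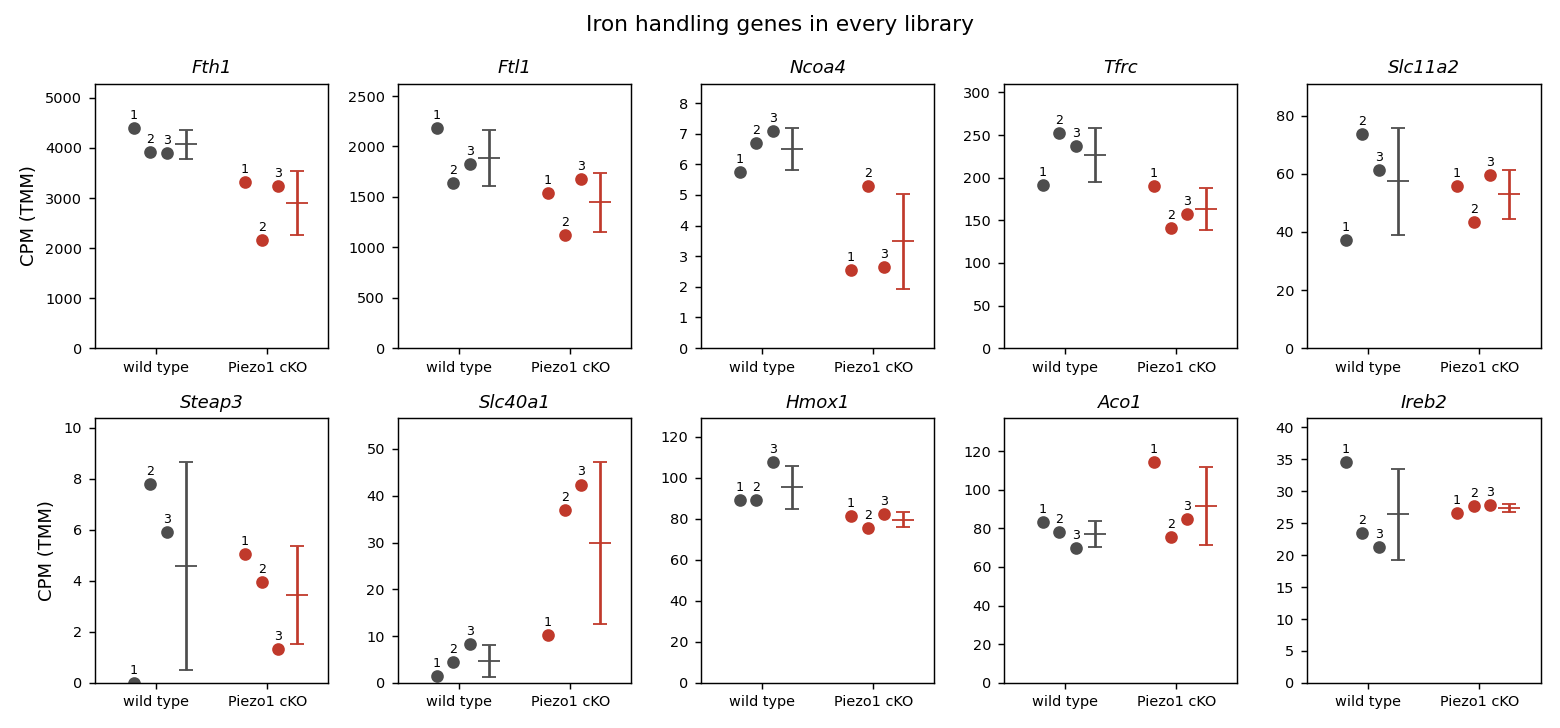
Level of each iron handling gene (y axis, CPM after TMM normalisation, starting at 0) in the 3 wild type libraries (grey) and the 3 libraries labelled cKO (red). Points are libraries with their replicate number, and the bar beside them is the mean ± SD. *Slc40a1* reaches 37.0 and 42.4 CPM in cKO 2 and 3 against at most 8.27 CPM in wild type, whereas *Fth1* and *Tfrc* are lower in each library labelled cKO than in any wild type library.

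The main comparison was made in edgeR with the filter, where 67 of 8551 genes (0.784%) were called, 27 of them lower (0.316%) and 40 higher (0.468%). Higher genes were thus 59.7% of the calls, and 73.1% with total counts only, 74.6% after cyclic loess normalisation and 44.4% in DESeq2. With the labels exchanged, these would be the shares of lower genes. Of the 10 iron handling genes 7 were tested and 0 of them called. DESeq2 (0.674% of its genes called), limma-voom (0.842%), DESeq2 size factors (0.842%), cyclic loess normalisation (0.69%), at least 10 counts in every library (1.23%) and edgeR with the replicate number as a block (0.538%) also called 0 of the 7, of which DESeq2 left *Slc11a2* and *Ireb2* without an adjusted p. At an unadjusted p under 0.05 there were 3 (*Fth1*, *Ftl1* and *Tfrc*), all below 0, against 11.9% of all genes tested, or 5.78% in that direction. A log2 fold change below 0 was found for 5 of the 7, against 49.8% of all genes tested, and one above 0 for *Aco1* and *Ireb2*, with a median of -0.26 against 0.0021 over all genes tested. Over the full set of 10, 4 genes were lower and 1 was higher in all 3 libraries labelled cKO than in any wild type library. Over all 19247 genes with a count, 4.9% were lower and 6.13% higher in that way. Of the 7 tested, 3 were lower in that way, against 8.31% of all genes tested. *Ncoa4*, the other of the 4 lower genes, had at most 6 counts in any library.

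*Fth1*, on the plus strand of chromosome 19 from 9980598 to 9985098, encodes the ferritin heavy chain, which oxidises iron as it enters the shell. Its level was 4405, 3917 and 3900 CPM in wild type and 3314, 2159 and 3232 CPM in the libraries labelled cKO. All 3 of the latter were below all wild type libraries, and cKO 2 lay apart at the bottom. Means were 4074 ± 287 CPM and 2902 ± 644 CPM (SD, n = 3 each). edgeR put the log2 fold change at -0.49 (SE 0.17), or 0.712-fold, with an adjusted p of 0.177. Adjusted p-values ranged from 0.0548 (DESeq2) to 0.407 over 15 alternatives, and the log2 fold change was -0.16 after cyclic loess normalisation and -0.32 without cKO 2. By count, *Fth1* had rank 2, 1 and 2 among all genes in wild type 1 to 3 and rank 3 in each library labelled cKO. It held 0.387% ± 0.0231 and 0.288% ± 0.0548 of the counts (SD, n = 3 each).

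*Ftl1* encodes the ferritin light chain, which helps to form the iron core, and lies on the minus strand of chromosome 7 from 45457944 to 45459884. It was at 2186, 1637 and 1825 CPM in wild type and at 1541, 1117 and 1676 CPM in the libraries labelled cKO. cKO 3 was slightly above wild type 2, so the groups overlapped. edgeR gave a log2 fold change of -0.38 (SE 0.16, adjusted p = 0.278), which was -0.11 after cyclic loess normalisation, -0.23 without cKO 2 and -0.26 without wild type 1. The ratio of *Ftl1* to *Fth1* counts does not depend on library size. It was 0.496, 0.418 and 0.468 in wild type and 0.465, 0.517 and 0.519 in the libraries labelled cKO. These ratios overlapped between the groups, and no difference in the proportion of the 2 chains beyond the spread of the libraries was seen.

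Counts of the ferritin genes are uncertain, because near-identical copies can share their reads and how such reads were handled is not stated. *Ftl1-ps1* on chromosome 13 (74399694 to 74407346) matched the *Ftl1* transcript at 906 of 910 aligned bases (99.6%). It held 0.751 to 0.789 counts for each *Ftl1* count in all 6 libraries, and its log2 fold change was -0.40 (SE 0.15, adjusted p = 0.215, edgeR). *Ftl1-ps2*, with 33 to 45 counts, and *Ftl2-ps*, with 8 to 23, had log2 fold changes of -0.11 and 0.07, and *Fth1-ps*, with 51 to 72 counts, one of -0.23. When the copies were added to their parent genes, a choice made after the table was seen, the log2 fold change of *Fth1* was -0.48 (adjusted p = 0.182, edgeR) and that of *Ftl1* -0.38 (adjusted p = 0.328, edgeR).

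*Ncoa4* encodes the receptor that carries ferritin to the lysosome, where its iron is released, and lies on the plus strand of chromosome 14 from 32159865 to 32179855. It had 4, 6 and 6 counts in wild type and 2, 4 and 2 counts in the libraries labelled cKO. At this depth the pooled 16 and 8 counts were in a ratio of 0.530 (exact Poisson 95% interval 0.196 to 1.31). A difference was thus not detectable, although no library labelled cKO exceeded 5.28 CPM and no wild type library was below 5.75 CPM. In edgeR without the filter its adjusted p was 0.725.

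**Figure D2:**
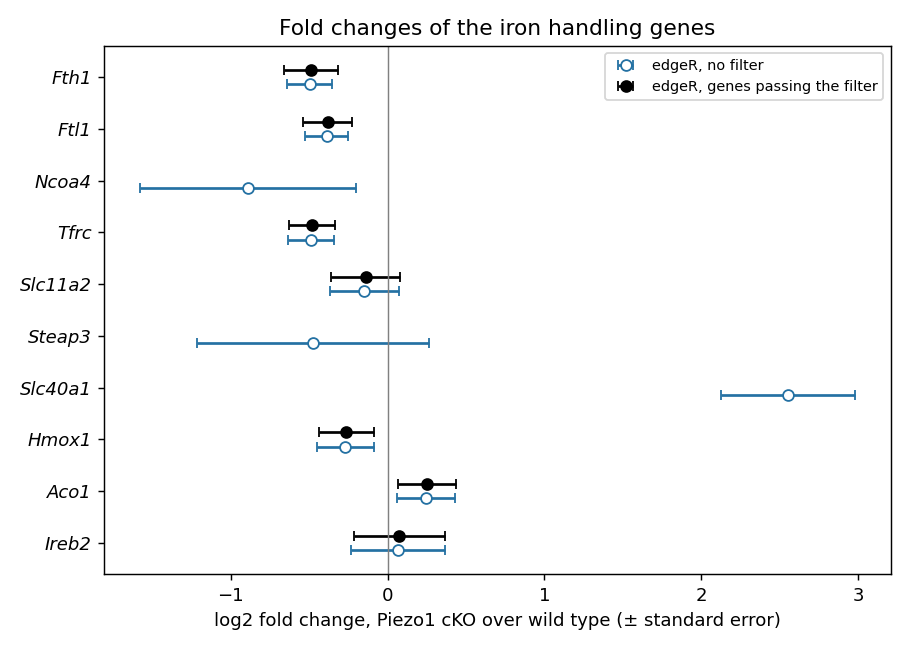
Log2 fold change of each iron handling gene, libraries labelled cKO over wild type (x axis), with bars of ± 1 SE. Filled points are edgeR on the genes that passed the filter, and open points, shown for every gene, are edgeR with no filter. *Ncoa4*, *Steap3* and *Slc40a1* have an open point only. *Slc40a1* stands at 2.55 and the other 9 genes lie between -0.89 and 0.25.

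Among the uptake genes, *Tfrc* came closest to the threshold. It encodes the transferrin receptor and lies on the plus strand of chromosome 16 from 32608920 to 32632794. Its level was 191.3, 252 and 237 CPM in wild type and 190.1, 141 and 158 CPM in the libraries labelled cKO. The groups did not overlap, but wild type 1 and cKO 1 were nearly equal. Means were 227 ± 31.7 CPM and 163 ± 24.8 CPM (SD, n = 3 each). The log2 fold change was -0.48 (SE 0.15, adjusted p = 0.0942, edgeR), with adjusted p-values from 0.0136 to 0.562 over 15 alternatives. It was called without wild type 1 (adjusted p = 0.0403, edgeR) and without cKO 1 (adjusted p = 0.0136, edgeR), in fits where 1.17% and 1.98% of genes were called. The other 4 fits with 1 library left out, which did not call *Tfrc*, called 0.849% and 1.48% of genes without wild type 2 and 3 and 0.0681% and 0.325% without cKO 2 and 3. After cyclic loess normalisation its log2 fold change was -0.43. At an adjusted p under 0.1 it was the 1 member of the 7 called in edgeR, against 1.45% of all genes tested.

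*Slc11a2* encodes DMT1, the transporter that moves ferrous iron out of the endosome, and lies on the minus strand of chromosome 15 from 100387898 to 100425072. It was at 37.4, 73.6 and 61.4 CPM in wild type and at 55.8, 43.6 and 59.6 CPM in the libraries labelled cKO. The latter all lay within the wild type range, and edgeR gave a log2 fold change of -0.14 (SE 0.22, adjusted p = 0.874), which was -0.35 without wild type 1 and 0.084 without wild type 2. *Steap3*, which encodes the endosomal ferrireductase and lies on the minus strand of chromosome 1 from 120190757 to 120272705, had 0, 7 and 5 counts in wild type and 4, 3 and 1 counts in the libraries labelled cKO. The 0 in wild type 1 allows a level of up to 4.31 CPM, so *Steap3* was near the limit of detection in both groups. The ratio of its pooled rates was 0.707 (exact Poisson 95% interval 0.251 to 1.88). In edgeR without the filter the log2 fold change of *Steap3* was -0.47. It was -0.96 without wild type 1 and 0.099 without wild type 2, so its direction was not settled.

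*Hmox1* encodes heme oxygenase-1, which frees iron from heme, and lies on the plus strand of chromosome 8 from 75093621 to 75100589. It was at 89.2, 89.2 and 107 CPM in wild type and at 81.1, 75.3 and 82.2 CPM in the libraries labelled cKO. Every library of the latter was below every wild type library, but the gap between the nearest pair was small. In edgeR the log2 fold change was -0.26 (SE 0.18, adjusted p = 0.585), and adjusted p-values of 15 alternatives lay between 0.564 and 0.861. Without wild type 3 the log2 fold change was -0.17. Its paralog *Hmox2* had 5 to 10 counts per library.

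Both iron sensors had log2 fold changes above 0, and neither was called. *Aco1*, on the plus strand of chromosome 4 from 40143081 to 40198338, encodes iron regulatory protein 1, which is a cytosolic aconitase when it carries an iron-sulfur cluster. It was at 83.4, 78.1 and 69.7 CPM in wild type and at 114, 75.3 and 84.8 CPM in the libraries labelled cKO, where cKO 1 alone stood out. Its log2 fold change in edgeR was 0.25 (SE 0.18, adjusted p = 0.622), and 0.055 without cKO 1. *Ireb2*, on the plus strand of chromosome 9 from 54863789 to 54912530, encodes iron regulatory protein 2, which is degraded when iron is plentiful. Its level was 34.5, 23.4 and 21.3 CPM in wild type and 26.6, 27.7 and 27.8 CPM in the libraries labelled cKO, all within the wild type range. In edgeR this was a log2 fold change of 0.075 (SE 0.29, adjusted p = 0.955), and -0.056 without wild type 3.

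The genes with an IRE core in the 5′ UTR did not share a direction. *Fth1* and *Ftl1* had log2 fold changes of -0.49 and -0.38 in the main test, and *Slc40a1* one of 2.55 in the unfiltered test. *Tfrc*, with its cores in the 3′ UTR, was at -0.48. These values describe RNA, whereas binding at the 5′ UTR acts on translation.

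*Fth1* and *Ftl1* are among the most abundant genes, and genes of that class were mostly below 0. Of 78 tested genes with a mean of at least 1000 CPM, 75 had a log2 fold change below 0, against 49.8% of all genes tested. The median of the 78 was -0.27. Of them, 36 were lower in all 3 libraries labelled cKO than in any wild type library, against 8.31% of all genes tested. Of the 78, 1 was called, against 0.784% of all genes tested. *Fth1* was nevertheless toward the low end of these genes, with 2 of them more negative, whereas *Ftl1* had 9 more negative. Cyclic loess normalisation, which removes shifts that depend on level, left *Fth1* at -0.16 (adjusted p = 0.303, limma) and *Ftl1* at -0.11 (adjusted p = 0.668, limma).

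**Figure D3:**
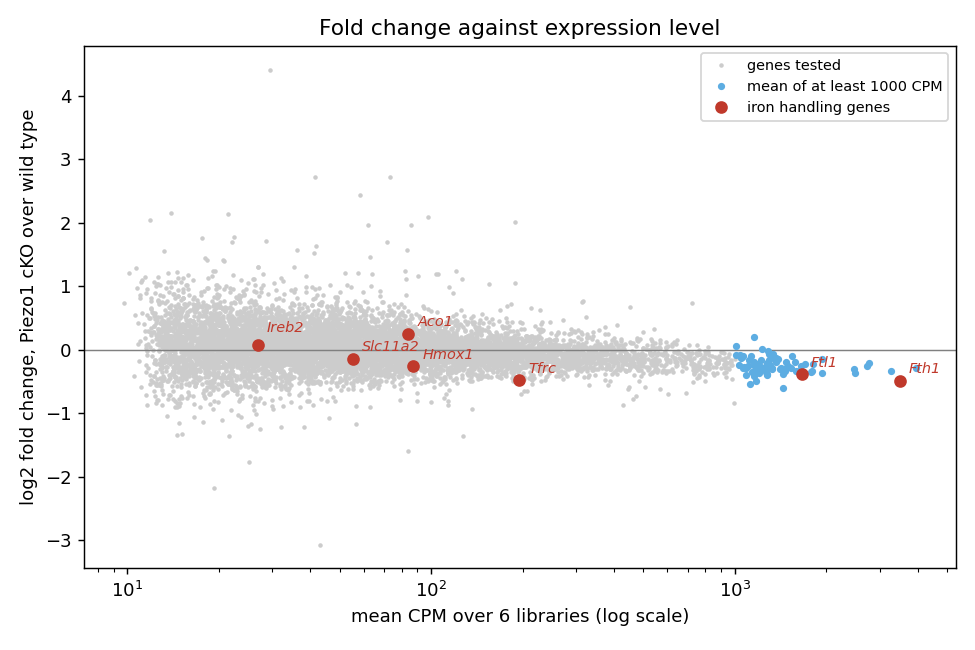
Log2 fold change, libraries labelled cKO over wild type (y axis), against mean level over the 6 libraries (x axis, CPM, log scale) for the 8551 genes tested (grey), those with a mean of at least 1000 CPM (blue) and the 7 iron handling genes tested (red). The blue genes lie mostly below 0 (75 of 78), with *Fth1* and *Ftl1* among them.

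The genes whose levels followed *Fth1*, *Ftl1* and *Tfrc* most closely were found by Pearson's r of log2 CPM over the 6 libraries, among 4698 other genes with a mean of at least 50 CPM. With so few points and so many genes high values arise readily, and r is given as a description. *Fth1* was closest to *Rplp0*, a ribosomal stalk protein gene (r = 0.996), *Hsp90ab1*, a chaperone gene (r = 0.994), and *Eif1*, a translation initiation factor gene (r = 0.992). *Ftl1* was closest to *Ftl1-ps1* (r = 0.997), with which it can share reads, and then to *Ppia* (r = 0.990) and the peroxidase gene *Prdx1* (r = 0.989). *Tfrc* was closest to *Ccn1*, a secreted matricellular protein gene (r = 0.993), *Farsb* (r = 0.990) and the spindle gene *Tacc3* (r = 0.989). *Ccn1* had a log2 fold change of -0.70 (adjusted p = 0.00591, edgeR), and none of the other 8 genes was called in edgeR.

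Beyond the 10 genes, 9 lists of iron, heme and iron-sulfur genes held 126 genes of the table, of which 101 were tested. None was called in edgeR or in DESeq2, where 0.784% and 0.674% of all genes were called, and 9 had an unadjusted p under 0.05 in edgeR, against 11.9% of all genes tested. Log2 fold changes were above 0 for 49 and below 0 for 52, with a median of -0.016. The medians of single lists given below were close to 0, and 8 of 9 took the other sign in at least 1 of 15 alternatives. Without overlap between the groups, 8 were higher and 11 lower, against 8.2% and 8.31% of all genes tested.

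The NRF2 list holds targets and regulators of the transcription factor that induces *Hmox1* and the ferritin genes under oxidative stress. Of its 19 tested genes, 12 had a log2 fold change below 0 and 7 above 0 (median -0.075), 6 were lower without overlap and 1 higher, and 3 had an unadjusted p under 0.05. Over all genes tested these shares were 8.31%, 8.2% and 11.9%. *Srxn1*, which encodes sulfiredoxin, had the smallest p of all 101 genes. It was at 449, 502 and 416 CPM in wild type and at 373, 271 and 327 CPM in the libraries labelled cKO, and its log2 fold change was -0.49 (SE 0.14, adjusted p = 0.0567, edgeR). All 3 of the latter were below the wild type range, and *Srxn1* was called when no filter was used, a fit that called 0.67% of genes. The most abundant genes of the list were *Prdx1* (-0.34, adjusted p = 0.344), *Sqstm1* (-0.25, adjusted p = 0.513) and *Gclm* (-0.21, adjusted p = 0.575), each lower without overlap. *Prdx1* and *Sqstm1* belong to the genes with a mean of at least 1000 CPM, of which 75 of 78 were below 0. *Nfe2l2*, which encodes NRF2 itself, was at 0.13 (adjusted p = 0.814, edgeR).

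In the ferroptosis list, which holds genes that limit or promote death by iron-dependent lipid peroxidation, 8 of 12 tested genes were below 0 and 4 above (median -0.097). *Slc3a2*, a subunit of the cystine transporter, had the smallest p (-0.43, SE 0.13, adjusted p = 0.117, edgeR), and *Gpx4*, the lipid peroxidase that prevents ferroptosis, was at 0.10 (adjusted p = 0.898, edgeR). The other most abundant genes were *Pebp1* (-0.030) and *Cisd1* (0.26).

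Genes of iron-sulfur cluster assembly were evenly divided, with 13 of 27 above 0 and 14 below (median -0.016). *Ciao1*, a cytosolic assembly factor, was at 41.7, 51.3 and 43.7 CPM in wild type and at 67.2, 81.9 and 63.6 CPM in the libraries labelled cKO. These levels did not overlap, and edgeR gave a log2 fold change of 0.63 (SE 0.21, adjusted p = 0.161). The most abundant genes were *Hspa9*, the mitochondrial chaperone (-0.28), *Glrx5* (0.010) and *Glrx3* (-0.13). The heme synthesis genes had 6 of 10 above 0 and 4 below (median 0.036). *Fech*, which inserts iron into heme, was at 111 ± 12.9 and 142 ± 4.08 CPM (SD, n = 3 each), with a log2 fold change of 0.36 (SE 0.16, adjusted p = 0.330, edgeR). *Tmem14c* and *Urod*, also abundant, were at -0.12 and 0.034.

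Of 8 tested genes of heme transport and breakdown, 5 were above 0 and 3 below (median 0.0093), among them *Slc48a1*, an endosomal heme transporter (-0.21, adjusted p = 0.573, edgeR), *Tspo* (0.098) and *Pgrmc1* (0.016). In the list of iron chaperones and mitochondrial iron, 6 of 9 were above 0 and 3 below (median 0.089). *Mcoln1*, the lysosomal channel that can release iron, was at 68.4 ± 12.6 and 94.3 ± 2.58 CPM (SD, n = 3 each) without overlap, with a log2 fold change of 0.46 (SE 0.18, adjusted p = 0.260, edgeR). *Pcbp1*, which delivers iron to ferritin, was at -0.27 (adjusted p = 0.438, edgeR), *Pcbp4* at 0.19 and *Atp6v1a* at 0.089.

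Only 4 of the 12 other uptake genes in the table could be tested, 2 above and 2 below 0 (median -0.023). *Slc39a14*, a transporter of iron not bound to transferrin, had a log2 fold change of -0.30 (adjusted p = 0.458, edgeR), *Steap1* one of 0.089 and *Lrp1* one of -0.14. *Tfr2*, the second transferrin receptor, had 0 counts in 5 libraries and 2 counts in wild type 2, and *Slc11a1*, the phagosomal relative of *Slc11a2*, had 1 to 7 counts per library. Of 3 tested genes of export and systemic control, *Fbxl5*, which marks iron regulatory protein 2 for degradation, was at 0.38 (SE 0.24, adjusted p = 0.542, edgeR), and *Skp1* and *Cul1*, its ligase partners, were at -0.19 and -0.17. Among 9 tested genes with other IREs or with hypoxia-linked roles, 5 were above and 4 below 0 (median 0.058). *Egln3*, an iron-dependent prolyl hydroxylase gene, was at 48.1 ± 4.28 and 72.0 ± 12.9 CPM (SD, n = 3 each) without overlap, with a log2 fold change of 0.58 (SE 0.21, adjusted p = 0.187, edgeR). *Hif1a* was at 0.17 and *Egln2* at 0.12.

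**Figure D4:**
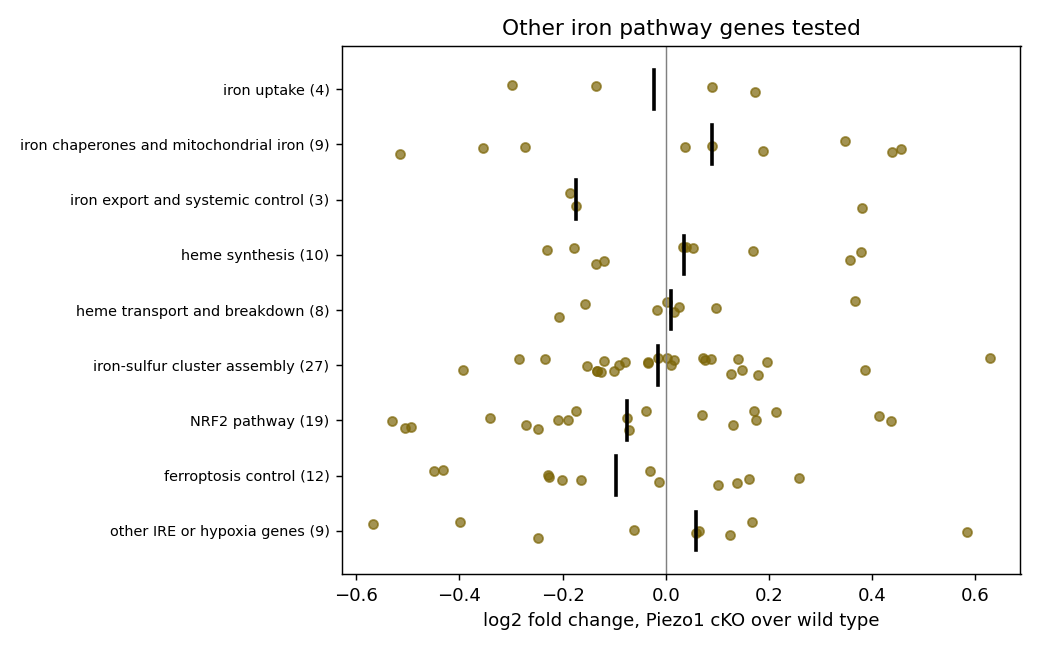
Log2 fold change, libraries labelled cKO over wild type (x axis), of the genes tested in 9 other iron lists (y axis, number tested in brackets); points are genes and black bars medians. The medians lie between -0.17 and 0.089, 8 of the 9 have the other sign in at least 1 of 15 alternatives, and no gene passed the threshold.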

How the data were processed

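RNA-seq was performed on 3 wild type and 3 *Piezo1* cKO libraries of MuSCs cultured for 3 d. The authors mapped reads with STAR 2.7.9a to GRCm38, assigned them with featureCounts 2.0.1, counted UMIs per gene with UMI-tools 1.1.1 and deposited these counts without normalisation. Settings for strand and for reads that map to several places are not stated.

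Counts were analysed in R 4.3.3 with edgeR 4.0.16 (TMM, robust quasi-likelihood fit, filter on low counts with a minimum of 10, Benjamini-Hochberg adjustment over the 8551 genes tested, called under 0.05). Standard errors were taken from the fold change and its F statistic. DESeq2 1.42.0, the tool used by the authors, and limma 3.58.1 were alternatives. Correlations used log2 CPM with a prior count of 2. The fit was tested on simulated counts of the same design, where it recovered 191 of 200 genes changed by 4-fold among 8548, with 10 false calls. Changes were planted only in genes that passed the filter, and smaller changes were not simulated. The simulation thus gives no measure of power for changes such as that of *Fth1* (0.712-fold), or for *Slc40a1*, which was under the filter. Gene positions and transcripts came from GENCODE M21 (GRCm38).

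The genes, lists and tests were chosen with earlier results of these data known. Genes named were the 10 iron handling genes, their paralogs and copies, *Piezo1*, the called, the 3 most abundant and the smallest-p genes of each list, leading markers and closest genes, apart from a gene that is not reported here. *Nfe2l2*, *Gpx4*, *Pax7*, *Chodl*, *Vcam1*, *Sdc4*, *Cdh15*, *Csf1r*, *Cd68*, *Cd34*, *Dcn* and *Ly6a* were named after their values were seen. Of 215 listed symbols, 4 were renamed through RefSeq synonyms and 27 were not analysed here. Between pairs of libraries of a group, chi-square per degree of freedom was 1.64 to 2.61, which is more than counting noise alone gives but does not separate repeat preparations of 1 culture from separate cultures.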

Additional observations from a re-analysis of the deposited data

How the results depend on the processing

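The alternatives were DESeq2, limma-voom, DESeq2 size factors, total counts only, cyclic loess, no filter, at least 10 counts in every library, the replicate number as a block, an adjusted p under 0.1 and each library left out, and the joined ferritin copies were added later. Genes called higher in the libraries labelled cKO numbered 40 in edgeR, 12 in DESeq2, 82 with no filter, 26 with the block and 76 at an adjusted p under 0.1. Genes called lower numbered 27, and 15 in DESeq2, 15 after cyclic loess, 47 with no filter and 48 at an adjusted p under 0.1. The share of higher genes among the calls was 59.7% in edgeR, 73.1% with total counts only, 74.6% after cyclic loess and 44.4% in DESeq2. DESeq2, the tool used by the authors, thus gave more lower than higher calls. Higher and lower would change places if the labels were exchanged, and the *Piezo1* counts gave no check of the labels. Leaving out 1 library gave 4 (without cKO 2) to 101 (without cKO 1) higher and 2 to 73 lower genes, the same libraries giving the extremes.

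Of the iron handling genes, 0 were called in edgeR, 1 with no filter (*Slc40a1*), 1 at an adjusted p under 0.1 (*Tfrc*) and 0 to 2 with 1 library left out (*Tfrc* without wild type 1 or cKO 1, and *Slc40a1* in 4 fits where its counts in cKO alone carried it past the filter, so that those calls are no support). Over all genes these settings called 0.67%, 1.45% and 0.0681% to 1.98%. Of the other iron genes, 0 were called in edgeR, and *Srxn1* was the 1 called with no filter, with at least 10 counts in every library and at an adjusted p under 0.1, and 0 to 1 were called with 1 library left out, against 0.67%, 1.23%, 1.45% and 0.0681% to 1.98% of all genes. With 1 library left out, log2 fold changes ran from -0.61 to -0.39 for *Tfrc*, from -0.35 to 0.084 for *Slc11a2* (above 0 without wild type 2) and from -0.056 to 0.29 for *Ireb2* (below 0 without wild type 3). The other tested iron handling genes kept their direction in every alternative, with -0.60 to -0.32 for *Fth1* and -0.50 to -0.23 for *Ftl1* when 1 library was left out. Of the 9 list medians, that of iron chaperones and mitochondrial iron alone kept its sign in all 15 alternatives. Iron uptake, at -0.023, was 0.053 to 0.20 with 1 library left out, and iron export and systemic control, at -0.17, was 0.055 in DESeq2 and 0.070 with no filter.

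The replicate numbers did not pair the libraries. After removal of the group means, libraries with the same number had a mean correlation across genes of -0.112 over 3 pairs, and 0 of 6 libraries correlated best with their own number. In edgeR with a replicate block, 46 genes were called, the log2 fold change of *Fth1* was -0.51 (adjusted p = 0.0567, edgeR) and that of *Slc40a1*, without the filter, 2.63 (adjusted p = 3.3e-06, edgeR). Depth limits *Ncoa4*, *Steap3* and *Piezo1*, which had at most 12 counts in any library.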
